A study of Mus musculus with 28 samples.

Results

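Among the 28 libraries of sorted mouse medullary thymic epithelial cells (mTECs) in the series, 8 came from double-mutant thymus, 4 from the subset named mTEChi and 4 from the subset named mTEClo. They were taken by their labels alone, and every gene of the count table was compared between the subsets. All mice were on a C57BL/6 background. The double mutants carried Foxn1cre(+/-)Hnf4a(fl/fl)Hnf4g(-/-), in which Foxn1-Cre, a driver active in thymic epithelium, removes floxed Hnf4a, while Hnf4g is written as a plain deletion that does not depend on Cre. The controls that stand beside them, 4 mTEChi and 4 mTEClo libraries, carried Foxn1cre(+/-)Hnf4a(fl/+)Hnf4g(+/-), so they had the same Cre and were short of an allele of each gene as well. The labels call the mTEClo cells post-Aire and give no age or sex.

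The mTEChi libraries were deposited as a later block of their own, in both genotypes. Subset and submission block therefore coincide, and their parts in any difference cannot be told apart. The labels number the thymi but do not say that each library came from a separate animal, and the p-values rest on differences among libraries that may be technical repeats. In bulk libraries, fewer cells of a type and less RNA per cell cannot be told apart either.

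mTECs display self proteins to developing T cells. Mature mTEChi carry high MHC class II and CD80 and many express Aire, the regulator that turns on large numbers of genes of peripheral tissues; they arise from dividing precursors. After the Aire stage the cells lose MHC class II and many take on programs of other epithelia, such as tuft, keratinocyte, microfold or gut-like cells, and are grouped as mimetic cells. Hnf4a and Hnf4g encode nuclear receptors that drive enterocyte and hepatocyte genes, and the title of the series names gut and liver programs of the thymus as its question.

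The 8 double-mutant libraries held 5881630 to 7599304 counts. At an equal depth of 5000000 reads, 28649 to 29500 genes would have a read in mTEChi against 25988 to 27489 in mTEClo, and the same order stood in the controls (28227 to 29261 against 26794 to 28168). Reads of ribosomal protein genes took 1.63% to 2.54% of the double-mutant mTEChi libraries and 1.26% to 1.34% of the mTEClo libraries. Mitochondrial transcripts took 1.73% to 2.03% and 1.53% to 1.74%. The part of these library properties in the gene differences was not tested.

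The double-mutant subsets differed across a large part of the transcriptome. Of 20095 genes tested, 10207 (50.8%) were called at an adjusted p under 0.05 (edgeR's quasi-likelihood test with Benjamini-Hochberg adjustment), and 5574 of them (27.7%) were higher in mTEChi and 4633 (23.1%) lower. A called change of more than 1 on the log2 scale was seen for 4354 higher genes (21.7%) and 2259 lower genes (11.2%). The 4 mTEChi libraries all lay above the 4 mTEClo libraries for 4856 genes (24.2%) and all below for 4352 (21.7%). The median log2 fold change of all tested genes was 0.06, and it stayed under 0.1 with other scalings of the libraries. The gene groups below are read against these shares. Values of genes are CPM (read counts relative to a common library total, after TMM scaling), listed in the order of libraries 1 to 4, means are given with the SD over the 4 libraries of a group, and differences are log2 fold changes of mTEChi over mTEClo with their standard error (SE).

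**Figure D1:**
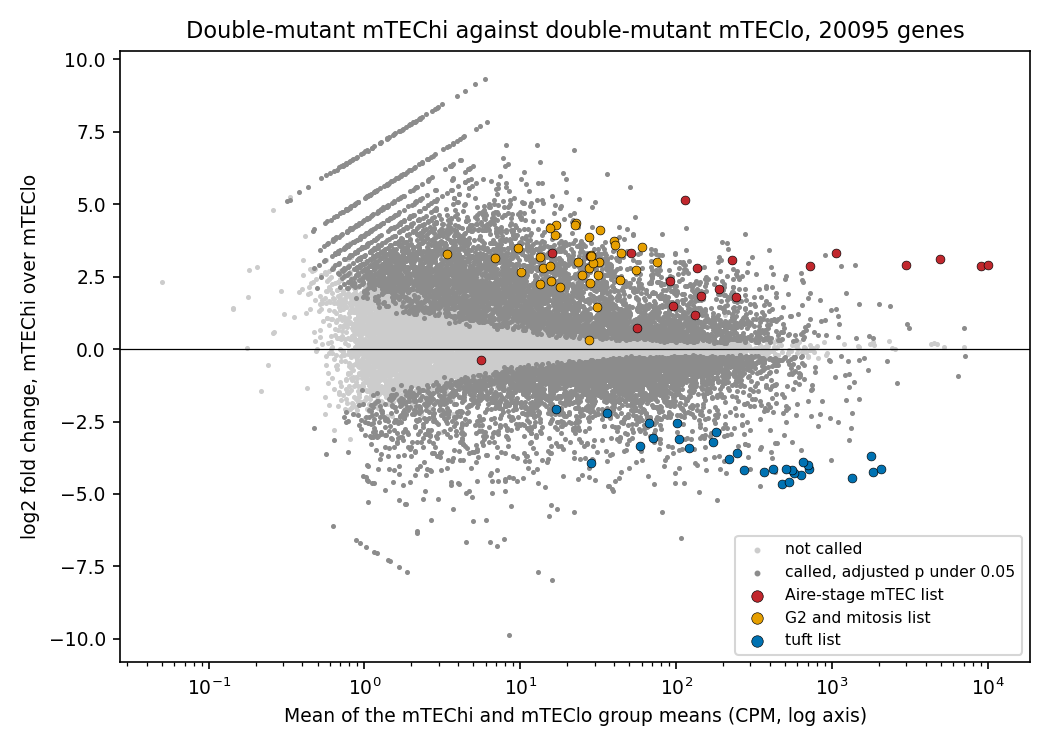
Each point is a gene; the horizontal axis (log scale) is the mean of the double-mutant mTEChi and mTEClo group means in CPM and the vertical axis the log2 fold change of mTEChi over mTEClo. Dark points were called; the diagonal stripes are genes with few reads in a group, whose fitted fold is not a measurement. Red Aire-stage genes and orange genes of mitosis lie above 0 and the 29 blue tuft genes all lie below it, with Prdm1 and Cenpa the uncalled members near the line.

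The targeted genes were low in both double-mutant subsets. Hnf4a read 4.73, 1.55, 7.18 and 3.33 CPM in mTEChi and 3.01, 3.12, 2.30 and 4.33 CPM in mTEClo, and Hnf4g read 6.77, 5.34, 5.77 and 13.2 CPM against 4.52, 3.27, 4.87 and 8.51 CPM. The groups overlapped for both genes and neither difference was called (log2 fold change 0.40, adjusted p = 0.57 and 0.56, adjusted p = 0.169). In the controls Hnf4a averaged 4.60 ± 3.10 CPM in mTEChi and 4.70 ± 2.10 CPM in mTEClo, and Hnf4g 20.4 ± 3.38 and 12.9 ± 2.78 CPM. Counts over whole genes do not check the deletion, because reads from exons outside the removed part remain and the part removed is not given in the labels. The library kit does not mark strand, so reads from a transcript on the opposite strand at these loci would be counted too.

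Aire, which many mature mTEChi express, separated the double-mutant subsets in the direction of the labels, and Vim was higher in the same subset. Aire (chr10:78030022-78043610, mm10, GENCODE M21) read 2210, 1890, 1350 and 2230 CPM in mTEChi and 182, 147, 233 and 214 CPM in mTEClo. All mTEChi libraries lay above all mTEClo libraries, and the difference was 9.9-fold (log2 fold change 3.31, SE 0.26, adjusted p = 1.11e-08). The libraries labelled post-Aire still held Aire transcripts. Vim, which encodes the intermediate filament protein vimentin (chr2:13573927-13582826), read 434, 529, 260 and 363 CPM against 31.8, 46.0, 37.5 and 30.2 CPM. It was 10.9-fold higher, again with no overlap (log2 fold change 3.45, SE 0.24, adjusted p = 3.27e-09). Most fibroblast and pericyte genes listed below were higher in the same libraries, and the part of such cells in the Vim values was not tested.

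**Figure D2:**
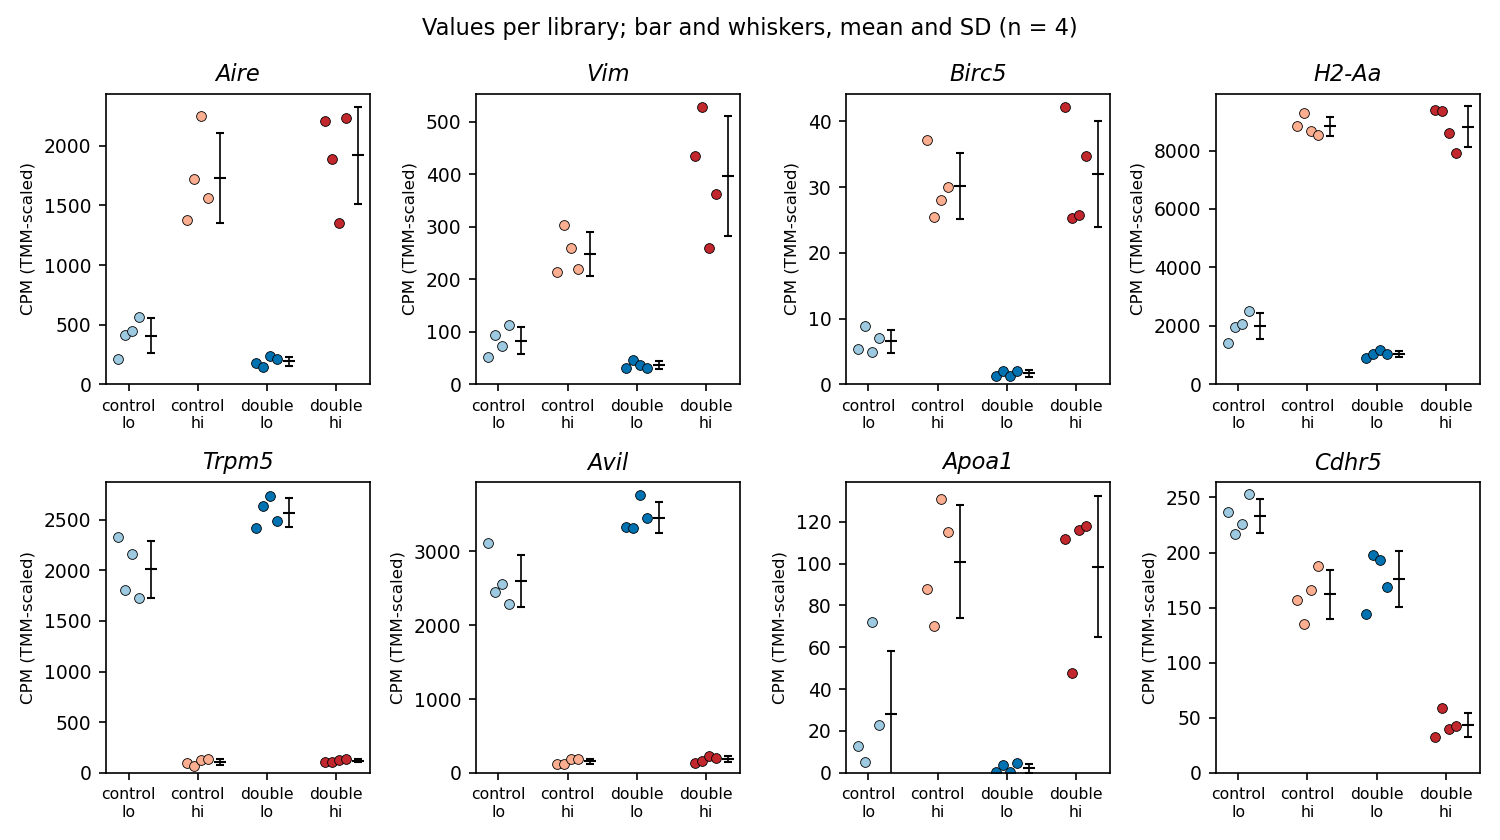
Each panel shows a gene in CPM (linear axis from 0), with a point for each library of the 4 groups and a bar with whiskers for the mean and SD (n = 4); hi and lo stand for mTEChi and mTEClo. Aire, Vim, Birc5 and H2-Aa are higher in double-mutant mTEChi than in every double-mutant mTEClo library, and Trpm5, Avil and Cdhr5 are lower. Apoa1 averages 2.11 CPM in double-mutant mTEClo and 28.2 ± 30.2 CPM in control mTEClo, a contrast that was not tested.

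Genes of the Aire stage were higher in mTEChi with 1 exception. Of the 20 Aire-stage genes listed, all were tested, 19 were higher in mTEChi and the exception, Prdm1 (a transcriptional repressor), read 4.83 ± 0.77 CPM against 6.34 ± 1.53 CPM (log2 fold change -0.39, adjusted p = 0.382). The median log2 fold change of the list was 2.86, against 0.06 over all genes. H2-Aa, an MHC class II alpha chain, read 9400, 9370, 8600 and 7930 CPM in mTEChi and 907, 1020, 1170 and 1020 CPM in mTEClo (log2 fold change 3.10, SE 0.14, adjusted p = 1.04e-11). The class II beta chains H2-Ab1 and H2-Eb1 differed by 2.89 and 2.90, and the invariant chain Cd74 by 2.87. The groups did not overlap for any of these 4 genes. High MHC class II is a trait by which mature mTEChi are known, so the direction of these genes is not independent of the subset label. They are also on the antigen presentation list below and are counted in both lists. Ccl22, a chemokine that attracts CCR4-bearing thymocytes, read 184, 200, 166 and 333 CPM against 10.1, 3.12, 7.44 and 4.18 CPM. Its difference of 35.1-fold (log2 fold change 5.13, SE 0.42, adjusted p = 1.9e-08) was the largest among called genes with a proper symbol, no overlap and a mean of at least 200 CPM in mTEChi, a level set after the data were seen.

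Over the 26 genes of antigen presentation, 19 were higher, 2 lower and 5 not called, with a median of 0.94. Among the genes of class II peptide editing, H2-DMb2 averaged 722 ± 65.2 CPM in mTEChi and 68.0 ± 11.1 CPM in mTEClo (log2 fold change 3.41, SE 0.17), and H2-Oa 514 ± 37.4 against 66.6 ± 7.45 CPM (2.95, SE 0.11). H2-DMa and H2-DMb1 differed by 2.08 and 1.16. The 2 lower genes were H2-D1, a class I heavy chain (-0.25, SE 0.07, adjusted p = 0.0045), and Rfxank, a subunit of the RFX complex that binds class II promoters (-0.53, SE 0.15, adjusted p = 0.00621). H2-K1, the other classical class I heavy chain on the list, was not called. Class I genes are near-identical copies of each other, so their reads could have been split between them.

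NF-kB signalling, through RANK, CD40 and the lymphotoxin beta receptor, drives mTEC maturation. Of 21 listed genes, 16 were higher in double-mutant mTEChi, 3 lower and 2 (Traf3 and Chuk) not called, with a median of 1.06. Relb, the non-canonical subunit, read 452, 491, 293 and 386 CPM against 87.3, 109, 102 and 89.7 CPM (log2 fold change 2.07, SE 0.16, adjusted p = 1.23e-08). Its partner Nfkb2 differed by 1.56 (SE 0.15). Inhibitors that the pathway itself induces were higher too: Nfkbie averaged 238 ± 32.5 against 47.8 ± 2.38 CPM and Nfkbia 2230 ± 125 against 759 ± 85.9 CPM. The 3 lower genes were the deubiquitinating feedback inhibitor Tnfaip3 (-2.0, SE 0.19), the lymphotoxin beta receptor Ltbr (-1.19, SE 0.17) and the canonical subunit Rela (-0.64, SE 0.13). None of the 3 overlapped between the subsets.

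Cell cycle genes were higher in double-mutant mTEChi, those of G2 and mitosis by more than those of S phase. Of 35 genes of G2 and mitosis, all tested, 34 were higher and Cenpa, a centromeric histone, was not called (30.4 ± 11.8 against 24.6 ± 3.11 CPM). The list's median was 3.01. Of 28 S phase genes, 21 were higher and 7 not called, with a median of 1.13. Birc5, which encodes survivin of the chromosomal passenger complex, read 42.2, 25.3, 25.8 and 34.7 CPM in mTEChi and 1.23, 2.08, 1.22 and 2.09 CPM in mTEClo. That is 19.3-fold with no overlap (log2 fold change 4.27, SE 0.28, adjusted p = 1.54e-09). The mitotic kinase gene Plk1 read 87.6, 32, 45.0 and 41.9 CPM against 2.19, 4.16, 3.38 and 4.48 CPM (3.86, SE 0.34, adjusted p = 4.94e-08). Top2a, the topoisomerase that untangles chromosomes, averaged 134 ± 37.1 against 16.8 ± 5.92 CPM (3.00, SE 0.25), and Cdca8, which encodes borealin, a partner of survivin, 51.2 ± 13.8 against 5.41 ± 1.03 CPM (3.24, SE 0.26). Library 1 was the highest of the mTEChi libraries for each of these 4 genes.

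Promoters of this class of genes are known for a cell-cycle homology region, TTTGAA in its common form, and for CCAAT boxes, through which repressor and activator complexes time transcription to G2. They are shown because 34 genes of the class moved in the same direction. Cdca8, Top2a and Plk1 were picked by smallest p among called genes whose window holds TTTGAA. Its presence in them was therefore set in advance and is not a result. The windows are RefSeq promoter sequences on GRCm38.p6, here cut to 100 bases before and 30 after the transcription start and written 5′ to 3′ along the gene. Capitals mark TTTGAA or CCAAT on either strand, so that TTCAAA and ATTGG are their reverse forms.
Birc5, chr11:117849137-117849266, plus strand: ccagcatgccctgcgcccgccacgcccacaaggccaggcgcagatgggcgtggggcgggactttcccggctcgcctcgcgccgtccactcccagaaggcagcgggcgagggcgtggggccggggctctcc
Cdca8, chr4:124936888-124937017, minus strand: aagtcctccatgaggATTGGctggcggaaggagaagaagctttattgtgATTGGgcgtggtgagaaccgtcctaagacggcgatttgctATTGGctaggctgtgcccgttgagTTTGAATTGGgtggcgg
Top2a, chr11:99024160-99024289, minus strand: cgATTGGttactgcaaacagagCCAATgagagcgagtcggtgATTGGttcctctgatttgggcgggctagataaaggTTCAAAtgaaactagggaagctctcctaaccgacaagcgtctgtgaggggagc
Plk1, chr7:122159335-122159464, plus strand: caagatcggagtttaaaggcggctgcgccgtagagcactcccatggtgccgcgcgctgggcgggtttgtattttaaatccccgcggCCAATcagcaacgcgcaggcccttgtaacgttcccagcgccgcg

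Cdca8 holds TTTGAA at bases 14 to 19 after the start, where it runs into a reverse CCAAT, and 3 more reverse CCAAT boxes before the start. Within the printed stretch, Top2a holds a reverse TTTGAA at -23 to -18 with 3 CCAAT boxes upstream of it, 2 of them in reverse. Farther upstream in its window lie a forward TTTGAA at -179 to -174 and 3 more reverse CCAAT boxes. In Plk1 the match lies at 31 to 36, just past the printed stretch, and a CCAAT box at -14 to -10. Neither string occurs in the Birc5 window. Over the whole window of 250 bases before to 50 after the start, on both strands, TTTGAA was found in 23 of the 29 G2 and mitosis genes that had a window (79.3%), in 3 of 23 S phase genes (13.0%), and in 15.9% of the 14318 tested genes with a window. CCAAT was found in 24 of 29 (82.8%), 13 of 23 (56.5%) and 42.2%. Among all 5574 genes higher in mTEChi, 4066 had a window and 18.3% of these held TTTGAA. Kif20a, Tpx2, Aurkb, Ccna2, Foxm1 and Incenp had no window in the table used.

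Among the S phase genes were Mcm3, a subunit of the replicative helicase (76.5 ± 30.3 against 9.25 ± 3.64 CPM, log2 fold change 3.05), and Uhrf1, which couples DNA methylation to replication (61.6 ± 20.5 against 7.93 ± 2.34 CPM, 2.95). Rrm1 and Mcm6, which had the highest CPM of the list (not corrected for transcript length), differed less. Rrm1, the large subunit of ribonucleotide reductase, read 147, 95.4, 105 and 113 CPM in mTEChi and 55.6, 74.4, 76.5 and 74.9 CPM in mTEClo (0.71, SE 0.13, adjusted p = 0.00029), and Mcm6 differed by 1.07 (SE 0.21). Pcna, Cdt1, Prim1, Ccne2, E2f1, Chaf1a and Chaf1b were not called.

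Peripheral-tissue antigens known to depend on Aire were higher where they were called. Of 12 listed, 10 were tested, 7 were higher and Rbp3, Chrna1 and Bpifa2 were not called, with a median of 2.86. Csn2, a milk casein, read 1680, 1610, 1650 and 1580 CPM in mTEChi and 188, 114, 173 and 222 CPM in mTEClo (9.37-fold, log2 fold change 3.23, SE 0.25, adjusted p = 7.94e-09). Ins2, which encodes insulin, averaged 19.2 ± 5.58 against 2.99 ± 0.31 CPM (2.67, SE 0.33), and the testis fatty acid binding protein gene Fabp9 67.3 ± 14.2 against 21.2 ± 7.68 CPM (1.67, SE 0.23).

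The tuft program ran the other way without exception. All 29 tuft genes were tested and all 29 were lower in double-mutant mTEChi, with no overlap of libraries for any of them and a median of -3.92. Trpm5, the cation channel of taste transduction (chr7:143069153-143094642), read 107, 104, 129 and 134 CPM in mTEChi and 2420, 2640, 2740 and 2490 CPM in mTEClo (log2 fold change -4.43, SE 0.19, adjusted p = 1.03e-11). Avil, encoding the actin-bundling protein advillin, read 139, 162, 229 and 199 CPM against 3330, 3320, 3760 and 3460 CPM (-4.25, SE 0.18, adjusted p = 9.86e-12). The libraries of each subset lay close together for both genes, and the subsets did not overlap. Enzymes of eicosanoid synthesis belonged to the same set, with Alox5ap at 36.6 ± 9.21 against 925 ± 35.9 CPM (-4.65, SE 0.18) and Ptgs1 at 36.5 ± 6.38 against 694 ± 29.3 CPM (-4.24, SE 0.15). So did signalling genes shared with blood cells: Vav1 averaged 54.3 ± 5.36 against 964 ± 42.5 CPM (-4.14, SE 0.15), Fyb 37.4 ± 4.94 against 455 ± 44.8 CPM (-3.60, SE 0.13) and Pik3cg, which is on no list, 24.9 ± 10.7 against 661 ± 59.4 CPM (-4.72, SE 0.22).

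Bitter taste receptors, the Tas2r family, filled most of the places among the largest decreases. The family was put together after the data were seen: of 40 symbols that start with Tas2r, 35 were tested and all 35 were lower in mTEChi, with a median of -4.73, or -4.60 when the 3 genes without a read in mTEChi are set at their bounds. Members with few or no reads in mTEChi passed the count filter through the mTEClo libraries, where they were higher. Their shared direction was thus largely set by the filter and by the late choice of the family. Tas2r134 had 475 reads in the 4 mTEClo libraries (19.5, 15.9, 12.6 and 19.9 CPM) and none in mTEChi, at least 156-fold lower against a floor of 3 counts over the group. Tas2r102 had 896 reads against 3, a ratio of 295 (95% counting interval 101 to 1430). Tas2r118 read 222, 188, 221 and 219 CPM in mTEClo and 0.79, 1.03, 4.74 and 2.18 CPM in mTEChi, a log2 fold change of -6.52 that becomes -7.24 without mTEChi library 3. Tas2r138 averaged 160 ± 6.15 CPM in mTEClo and 3.10 ± 3.22 CPM in mTEChi, where library 3, at 7.82 CPM, was again the highest (-5.62, and -6.71 without that library). The intervals cover counting error only, since reads copied by PCR are not independent molecules. Several members are close relatives in tandem, so reads could be split between them.

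Other mimetic programs held called genes in both directions, as did the tested genes as a whole (27.7% higher and 23.1% lower). Of 27 tested keratinocyte genes (28 listed), 14 were lower, 4 higher and 9 not called, with a median of -0.53. Spink5, a protease inhibitor of the skin barrier, was lower (373 ± 75.5 against 863 ± 124 CPM, log2 fold change -1.21, SE 0.20), as were the early differentiation keratins Krt1 and Krt10. Sprr1b, a cornified envelope precursor, was higher (18.4 ± 6.46 against 1.41 ± 0.83 CPM, 3.69, SE 0.43), and so were the desmosomal cadherin Dsg1a (1.28, SE 0.22), Grhl3 and Tgm3. Ly6d was called lower at -0.42 (adjusted p = 0.0291), but the groups overlapped and the call was lost without mTEClo library 1 (adjusted p = 0.117) or without mTEChi library 1, 2 or 4 (0.0529 to 0.0961).

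Goblet and airway secretory genes split 5 higher and 8 lower of 20. The mucus proteins Fcgbp (3500 ± 440 against 1240 ± 303 CPM, log2 fold change 1.5, SE 0.16) and Muc2 (43.3 ± 18.7 against 8.11 ± 3.26 CPM, 2.42, SE 0.39) were higher, while the antimicrobial lectin Reg3g was lower (-0.85, SE 0.18), as were Agr2 and the secretory-lineage factor Spdef. Of 12 microfold genes, 5 were higher, 3 lower and 4 not called. Gp2, the bacterial receptor of microfold cells, read 387, 284, 160 and 466 CPM in mTEChi and 1900, 1520, 2140 and 1860 CPM in mTEClo (-2.51, SE 0.30, adjusted p = 2.55e-06), and their transcription factors Spib and Sox8 were lower too. The higher members were Tnfrsf11b, the soluble RANKL decoy receptor (1.89, SE 0.18), Anxa5 (0.38), Ccl6, Marcksl1 and Aif1, and without mTEChi library 3 only 3 of these 5 were called.

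Ciliated-cell genes split 6 higher, 7 lower and 15 not called of 28, with a median of 0.04. Over all tested genes, 27.7% were higher and 23.1% lower, with a median of 0.06, so the list as a whole did not stand out. Those of the program that multiplies centrioles, Mcidas, Ccno and Deup1, were among the higher ones. Ccno read 93.1, 154, 48.3 and 80.1 CPM in mTEChi and 34.0, 12.2, 23.8 and 16.6 CPM in mTEClo (log2 fold change 2.11, SE 0.34, adjusted p = 5.78e-05). The axonemal dynein chain Dnaic2 was 131 ± 23.1 against 28.3 ± 4.20 CPM (2.21, SE 0.14). The tubulin-binding protein gene Tppp3 was lower (62.4 ± 30.1 against 132 ± 44.4 CPM, -1.09, SE 0.31), and Foxj1, the regulator of motile cilia, was not called.

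Neuroendocrine genes split 9 higher, 8 lower and 9 not called of 26, beside 27.7% higher and 23.1% lower over all tested genes. Calca, which encodes calcitonin and CGRP, read 235, 304, 215 and 249 CPM in mTEChi and 26.0, 51.5, 68.6 and 77.3 CPM in mTEClo (log2 fold change 2.17, SE 0.29, adjusted p = 8.13e-06). The factor Insm1 was higher with it, whereas the granins Chga and Chgb and the complexin Cplx2 (-1.58, SE 0.22) were lower. Muscle genes split 11 higher, 4 lower and 9 not called of 24 tested (26 listed), with a median of 0.94. Tnni1, the slow troponin I, averaged 68.1 ± 32.4 against 11.1 ± 4.45 CPM (2.62, SE 0.36) and the giant sarcomere protein gene Ttn 220 ± 31.1 against 84.4 ± 34.6 CPM (1.38, SE 0.24). The 4 lower genes were Myog, the factor of muscle terminal differentiation (44.2 ± 20 against 153 ± 66.8 CPM, -1.79, SE 0.31), and the contractile and energy genes Acta1, Ckm and Myl1, while Myod1, a factor of muscle commitment, was higher.

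**Figure D3:**
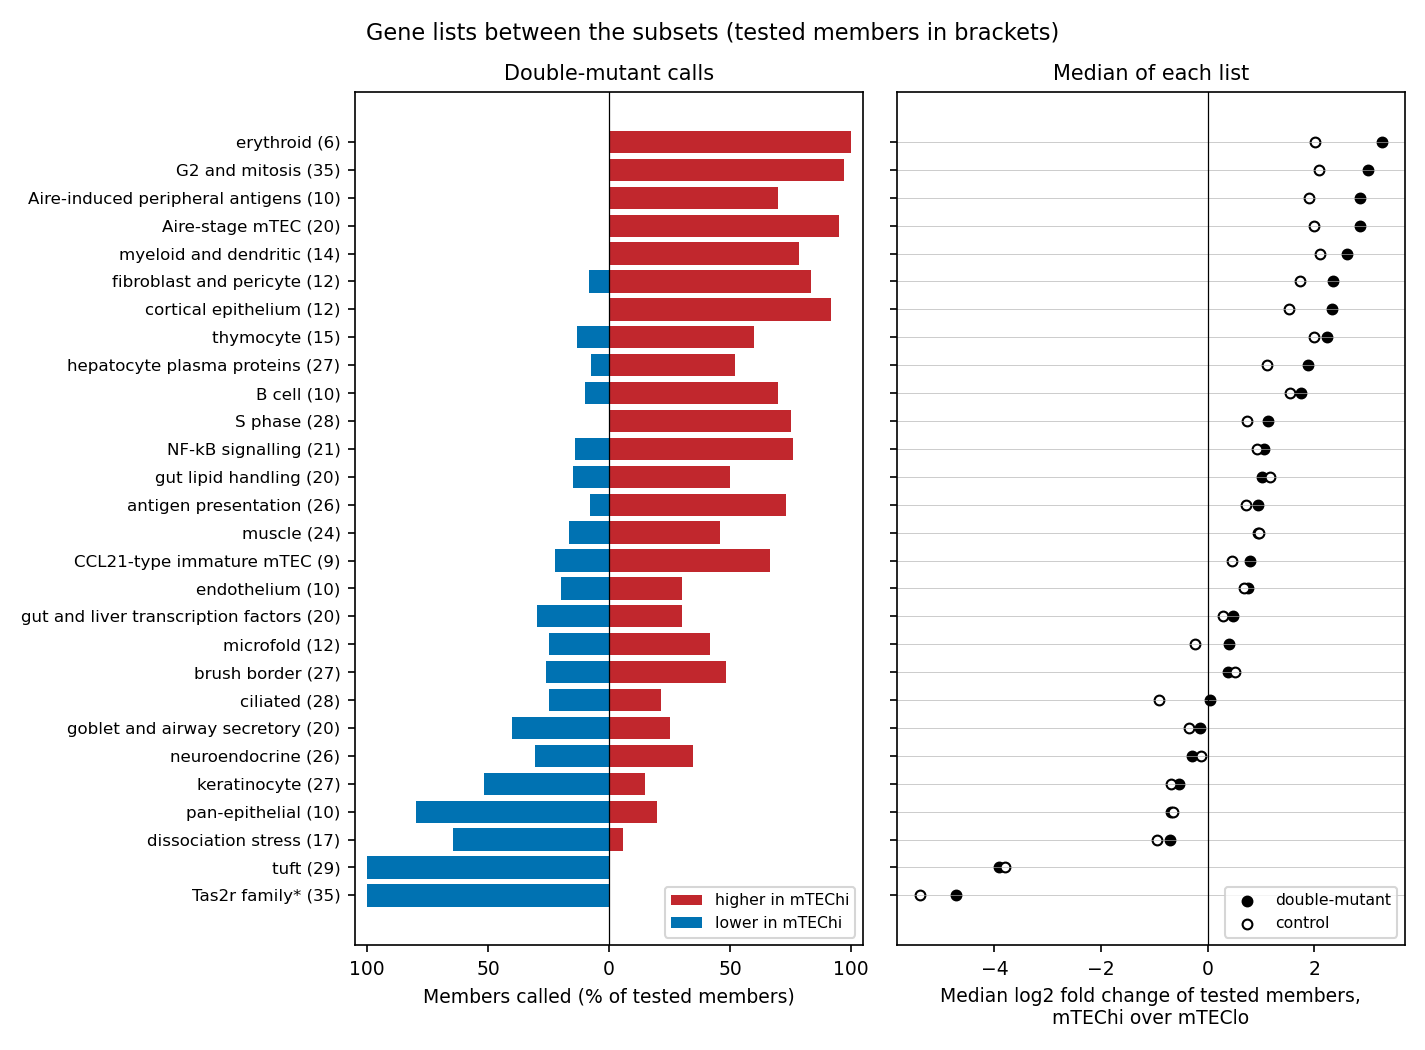
Left, the share of each list's tested members (number in brackets) called higher (red) or lower (blue) in double-mutant mTEChi; right, the median log2 fold change of mTEChi over mTEClo for the list in double mutants (filled) and controls (open). Tuft and Tas2r genes (the family marked * was added after the data were seen) reach 100% lower, and the ciliated median is 0.04 in double mutants and -0.92 in controls. That step between medians was not tested, and no ciliated gene was called for a difference between genotypes.

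Genes of gut and liver, the programs in which Hnf4 factors are known to act, were called in both directions in the double mutants. Over all tested genes, 27.7% were called higher and 23.1% lower. Brush border genes had overlapping summed levels, 1250 to 1550 CPM in mTEChi and 1420 to 1610 CPM in mTEClo. Of 27 tested brush border genes (29 listed), 13 were higher, 7 lower and 7 not called, with a median of 0.39. The lower ones included genes that build microvilli: Cdhr5, a cadherin that links microvillus tips (chr7:141269083-141276786), read 32.4, 58.9, 39.6 and 42.4 CPM in mTEChi and 144, 198, 193 and 169 CPM in mTEClo (log2 fold change -2.02, SE 0.16, adjusted p = 1.05e-08). Its binding partner Cdhr2 averaged 12.5 ± 4.92 against 163 ± 24 CPM (-3.72, SE 0.29), the actin bundler Espn 18.2 ± 3.27 against 199 ± 14.0 CPM (-3.45, SE 0.17), and villin, Vil1, was lower too. Among the higher ones were Ezr, which ties microvilli to the membrane (380 ± 50.1 against 292 ± 13.6 CPM, 0.39, SE 0.10), and digestive enzymes such as Mep1a, Sis, Alpi and Mgam. Espn and Vil1 are also used by tuft cells.

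Of 20 tested genes of gut lipid handling (21 listed), 10 were higher, 3 lower and 7 not called, with a median of 1.02. Apoa4, a chylomicron apolipoprotein, read 49.3, 42.5, 32.8 and 40.6 CPM in mTEChi and 1.92, 1.49, 2.84 and 1.64 CPM in mTEClo (log2 fold change 4.37, SE 0.40, adjusted p = 6.99e-08). Apoa1, the apolipoprotein of HDL, read 112, 47.9, 116 and 118 CPM against 0.14, 3.57, 0.27 and 4.48 CPM. It was higher in all mTEChi libraries (5.58, SE 0.76, adjusted p = 1.06e-05, and 6.25 without mTEClo library 4). Abcg5, a sterol exporter, differed by 2.73 (SE 0.32), and the lower genes were Dgat1, Cd36 and Slc27a4.

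Hepatocyte plasma protein genes were higher in 14 cases and lower in 2 (Ahsg and C8a) of 27 tested (30 listed), with a median of 1.88. Serpinc1, which encodes antithrombin, averaged 68.5 ± 10.9 against 7.55 ± 1.59 CPM (9.05-fold, 3.18 on the log2 scale, SE 0.24, adjusted p = 7.93e-09), and the acute-phase protein gene Crp 20.4 ± 3.96 against 3.11 ± 0.68 CPM (2.71, SE 0.28). C3, the central complement component, differed by only 0.59 (SE 0.16), and Alb was not called. Transcription factors of gut and liver split 6 higher, 6 lower and 8 not called of 20 tested (23 listed). The intestinal factor Cdx1 read 168, 186, 136 and 175 CPM in mTEChi and 50.7, 54.7, 49.2 and 51.5 CPM in mTEClo (log2 fold change 1.69, SE 0.14, adjusted p = 1.46e-08), with no overlap. Klf4 (-1.73, SE 0.10) and Klf5 (-2.33, SE 0.16), factors of epithelial differentiation and of crypt growth, were lower, together with Foxa1, Foxa2, Foxa3 and Prox1.

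The genes with the largest increases were mostly almost silent in double-mutant mTEClo. Frzb, a secreted Wnt antagonist, read 10.7, 17.4, 18.6 and 0.51 CPM in mTEChi with no read in mTEClo, at least 107-fold higher, and Csrp3, a muscle LIM protein gene, read 7.40, 19.8, 6.28 and 7.56 CPM with none, at least 91.2-fold higher. Hsd3b1, a steroidogenic enzyme gene, had 334 reads against 1 (ratio 338, 95% counting interval 60.3 to 13400), Xcl1, a chemokine that attracts XCR1-bearing dendritic cells, 312 against 1 (316, 56.3 to 12500), and the pituitary factor Tbx19 309 against 1 (313, 55.8 to 12400). The spread between mTEChi libraries was wide, since Tbx19 ranged from 1.89 to 23.8 CPM and Lao1 from 3.47 to 38.5 CPM. Nr0b1, a regulator of steroidogenic tissues, read 14.6, 49.1, 31.0 and 7.56 CPM against 0.27, 0.45, 0 and 0 CPM, and Myh8, the perinatal myosin heavy chain, 7.56, 7.75, 22.9 and 23.1 CPM against 0, 0, 0.27 and 0.30 CPM. The gut and pancreas genes Reg3b (31.3, 72.1, 16.5 and 55.5 against 1.37, 0, 0 and 0 CPM) and Reg1 (49.5, 14.3, 15.1 and 27.3 against 0.27, 0.45, 0.41 and 0 CPM) completed the set. Reg3b was not called by limma-voom (adjusted p = 0.138), and Reg genes are close paralogs whose reads could be split.

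At higher levels, the largest increases included Spp1, encoding osteopontin (218 ± 122 against 12.0 ± 5.79 CPM), the chemokine Ccl5 (365 ± 70.9 against 28.1 ± 11.4 CPM), the granulocyte and epithelial alarm protein gene S100a8 (393 ± 69.3 against 31.1 ± 14.5 CPM) and Ang4, an antimicrobial ribonuclease of Paneth cells (211 ± 152 against 19.7 ± 4.83 CPM). Ang4 read 434 CPM in mTEChi library 2 and 103 to 174 CPM in the others, and its log2 fold change of 3.42 became 2.79 without that library. The largest decreases at that level included the tuft genes Sh2d6 (42.2 ± 15.5 against 1020 ± 85.3 CPM) and Dclk1, a kinase gene (59.3 ± 15.1 against 1210 ± 102 CPM). Srpx2, which encodes a secreted sushi-repeat protein, and Rgs21, a regulator of G protein signalling in taste cells, stood at 354 ± 35.0 and 216 ± 40.6 CPM in mTEClo and at 9.42 ± 8.21 and 8.59 ± 6.17 CPM in mTEChi, with mTEChi library 3 the highest for both, and without it their log2 fold changes moved from -5.19 to -5.97 and from -4.61 to -5.26. Clec4e, a C-type lectin gene known from macrophages, was lower too (0.55 ± 0.45 against 30.2 ± 10 CPM, -5.75, SE 0.56).

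Genes of other thymic epithelial states did not divide by subset in the same way. Of 12 genes usual in cortical epithelium, 11 were higher in double-mutant mTEChi and Ctsl was not called, with a median of 2.34. Foxn1, the master regulator of thymic epithelium, read 200, 215, 136 and 152 CPM against 19.2, 33.5, 34.5 and 29.0 CPM (log2 fold change 2.60, SE 0.17, adjusted p = 1.35e-09), Ccl25, a chemokine for T cell progenitors, 473, 503, 640 and 449 CPM against 33.8, 28.0, 46.1 and 23.4 CPM (3.97, SE 0.33), and Tbata 414 ± 55.9 against 69 ± 11.1 CPM (2.59, SE 0.17). The part of cortical cells in these values was not tested. Of 9 tested genes of CCL21-type immature mTECs (10 listed), 6 were higher, among them Krt14 (0.99, SE 0.16), the integrin Itga6 (1.14, SE 0.13) and the hemidesmosome collagen Col17a1 (2.33, SE 0.28). Lifr and the scavenging chemokine receptor Ackr4 (4.90 ± 1.53 against 57.6 ± 10.9 CPM, -3.55, SE 0.40) were lower, Krt5 was not called, and Ccl21a was listed at 0 in all 16 libraries of both genotypes.

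Pan-epithelial genes were mostly lower in mTEChi. All 10 were called, 8 of them lower, with a median of -0.69. The simple keratins Krt8 (1290 ± 56.6 against 2140 ± 177 CPM, log2 fold change -0.73, SE 0.07), Krt18 (-1.16, SE 0.10) and Krt19 (100 ± 18.9 against 705 ± 48.6 CPM, -2.81, SE 0.20) and the epithelial factor Elf3 (204 ± 22.2 against 808 ± 53.0 CPM, -1.98, SE 0.09) were among them. Foxn1, above, and the claudin Cldn4 (455 ± 117 against 289 ± 51.7 CPM, 0.66, SE 0.21, adjusted p = 0.0148) were higher. The Cldn4 groups overlapped, and its call was lost without mTEClo library 3 (adjusted p = 0.051) or mTEChi library 2 (0.0674).

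Markers of several other cell types also moved with the subset. Of 15 tested thymocyte genes (16 listed), 9 were higher in mTEChi and 2 lower, and their summed level was 149 to 199 CPM in mTEChi and 94.8 to 103 CPM in mTEClo. Tcf7, a T cell factor, was 56.0 ± 6.79 against 7.38 ± 3.64 CPM (log2 fold change 2.93, SE 0.31), whereas Ptprc, which encodes CD45, the marker depleted before sorting, was lower (13.9 ± 2.50 against 39.3 ± 8.06 CPM, -1.49, SE 0.23), as was Themis (3.08 ± 2.28 against 31.9 ± 5.26 CPM, -3.33, SE 0.58). Cd3d (4.32 ± 2.23 against 0.18 ± 0.14 CPM, 4.47, SE 0.68) and Cd3g (7.49 ± 4.31 against 0.85 ± 1.17 CPM, 3.09, SE 0.83) were called higher. Rag1, Cd3e, Cd8a and Cd8b1 were not called. On average, Ptprc and Themis, both lower in mTEChi, made up most of the thymocyte sum in mTEClo. Myeloid and dendritic genes had a summed level of 1230 to 1640 against 239 to 544 CPM, most of it from Lyz2 on average in both subsets. Of 14 tested (15 listed), 11 were higher and none lower. Lyz2 (1150 ± 182 against 300 ± 154 CPM, 1.94, SE 0.29), the CSF1 receptor gene Csf1r (42.8 ± 9.27 against 6.67 ± 3.82 CPM, 2.69, SE 0.39) and Fcer1g (3.55, SE 0.41) were among them, and Clec9a, a marker of cross-presenting dendritic cells, had 47 reads in mTEChi and none in mTEClo, at least 15.9-fold higher.

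B cell genes were higher in 7 and lower in 1 of 10, with a summed level of 312 to 353 against 208 to 260 CPM, and the lower gene was Cd79b, a B cell receptor chain (48.1 ± 2.09 against 121 ± 11.2 CPM, log2 fold change -1.33, SE 0.11). Fibroblast and pericyte genes were higher in 10 and lower in 1 of 12 tested (13 listed), with 547 to 946 against 104 to 157 CPM. The pericyte gene Rgs5 read 369, 265, 588 and 331 CPM against 47.7, 69.2, 72.3 and 100 CPM (2.43, SE 0.25). Col1a1, a fibrillar collagen chain, was 63.2 ± 14.8 against 5.87 ± 6.30 CPM (3.44, SE 0.54, and 4.43 without mTEClo library 2), and the lower gene was Pdgfra (-1.53, adjusted p = 0.0239). Pdgfra lost its call without mTEClo library 3, mTEChi library 1 or mTEChi library 4 (adjusted p = 0.0682 to 0.0907). Endothelial genes split 3 higher and 2 lower of 10 tested (12 listed), near the shares over all tested genes (27.7% and 23.1%). Their summed level was 133 to 170 against 184 to 275 CPM, while their median log2 fold change was 0.77. The sum gives most weight to members of high level, among them Tek, which was lower (-2.01). All 6 tested erythroid genes (7 listed) were higher, at 39.3 to 54.7 against 10.9 to 14.8 CPM, and of these Hba-a2 had 48 reads against none, at least 16.2-fold higher. A gene with almost no reads in double-mutant mTEClo could pass the count filter only through other groups. The shared direction of the erythroid genes was thus partly set by the filter. mTECs transcribe many genes of other tissues, and the part of contaminating cells in these values, or in the groups above that move with them, was not tested.

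**Figure D4:**
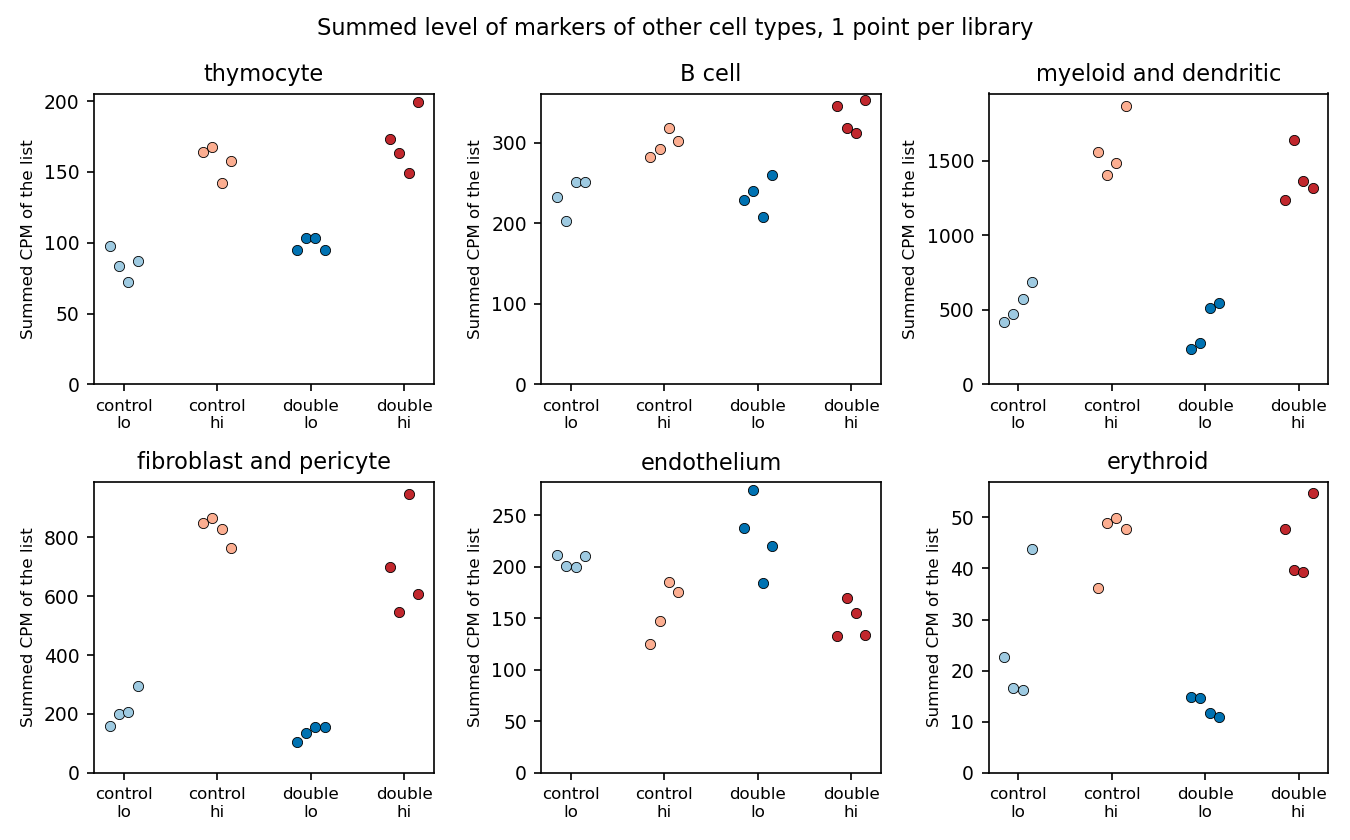
Each panel shows the summed CPM of a marker list (linear axis from 0) in every library of the 4 groups, hi and lo standing for mTEChi and mTEClo. In the double mutants the thymocyte, B cell, myeloid, fibroblast and erythroid sums of all 4 mTEChi libraries lie above those of all mTEClo libraries, and the endothelial sums lie below. On average in the double mutants, Lyz2 carries most of the myeloid sum, and Ptprc and Themis most of the thymocyte sum in mTEClo.

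Genes that respond to tissue dissociation differed too. Of 17, 11 were lower in double-mutant mTEChi, 1 (Klf6) higher and 5 not called, with a median of -0.70 and a summed level of 2510 to 3440 against 5740 to 6900 CPM. Fos, an immediate early factor, read 343, 275, 210 and 328 CPM in mTEChi and 1600, 1340, 1240 and 1370 CPM in mTEClo (log2 fold change -2.26, SE 0.18, adjusted p = 1.75e-08). Btg2, an antiproliferative early response gene, averaged 193 ± 14.0 against 826 ± 88.3 CPM (-2.10, SE 0.10). Their part in the other differences was not tested.

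The same contrast in the controls, from libraries of the same 2 submission blocks, called 8621 genes (42.9%), 4496 higher (22.4%) and 4125 lower (20.5%). Of the genes called in either genotype, 7125 were called in both and 7122 of these had the same direction. Another 3082 were called in double mutants alone and 1496 in controls alone, but the difference between genotypes was itself called for only 3 of the 3082. Across genes, which are not independent replicates, the log2 fold changes of the genotypes had a Pearson r of 0.837. The Aire-stage list had a median of 1.99 in controls and 2.86 in double mutants, G2 and mitosis 2.08 and 3.01, tuft -3.79 and -3.92, and hepatocyte plasma proteins 1.11 and 1.88. These list medians were not tested against each other. The median over members of the gene-by-gene difference between genotypes was 0.59, 1.06, -0.18 and -0.15 for these lists in the same order. For hepatocyte plasma proteins it thus ran opposite to the step between the list medians.

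Tested gene by gene, the subset difference itself differed between genotypes for 12 genes (0.0597%), 8 with a more positive difference in double mutants (0.0398%) and 4 with a more negative one (0.0199%). An unadjusted p under 0.05 was reached by 2298 genes, and DESeq2 called 360. The count is unsteady in a way that the sensitivity section sets out: leaving out 1 library gave 1 to 157 genes. The tight-junction protein gene F11r and Cdhr5 had the smallest adjusted p (0.0167 for both). F11r read 407, 453, 437 and 371 CPM in double-mutant mTEChi, 805, 793, 838 and 834 CPM in double-mutant mTEClo, 726 ± 42.2 CPM in control mTEChi and 819 ± 28.7 CPM in control mTEClo, a difference of differences of -0.80 (SE 0.11). The double-mutant mTEChi libraries were the low group. Cdhr5 averaged 43.3 ± 11.2 and 176 ± 25.1 CPM in the double mutants and 162 ± 22 and 233 ± 15.5 CPM in the controls (-1.5, SE 0.21), with the same group lowest. Myo15b, an unconventional myosin gene, behaved alike, at 14.9 ± 4.23 and 112 ± 9.12 CPM against 69 ± 15.1 and 167 ± 19.2 CPM (-1.63, SE 0.24, adjusted p = 0.0182). The fourth, Pstpip2, an actin-associated adaptor gene, stood at 60.3 ± 5.28 and 305 ± 31.5 CPM against 72.4 ± 5.03 and 215 ± 11.4 CPM (-0.76, SE 0.13, adjusted p = 0.0448).

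**Figure D5:**
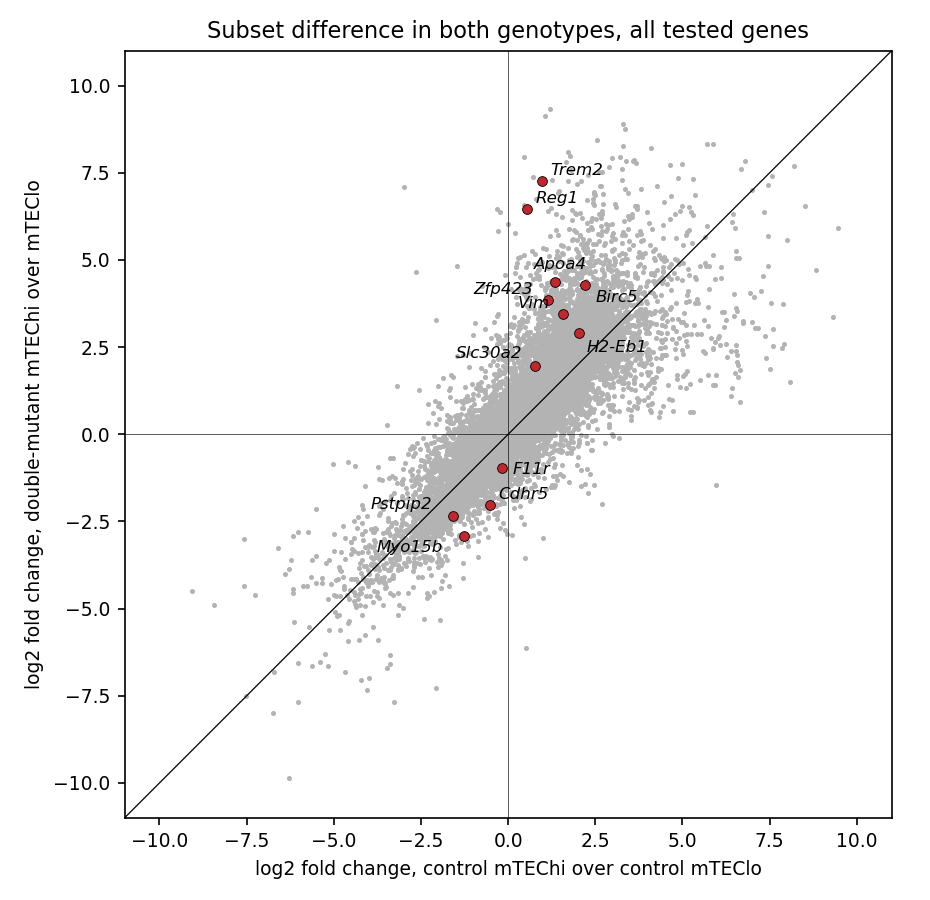
Each grey point is a gene, placed by its log2 fold change of mTEChi over mTEClo in controls (horizontal) and in double mutants (vertical), with the line of equal change. The 12 red genes are those whose subset difference was called as different between genotypes; the height of Trem2 rests on no reads in double-mutant mTEClo and is not a measured fold.

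Several genes with a more positive difference in the double mutants had a lower mean in double-mutant than in control mTEClo. Vim averaged 36.3 ± 7.14 CPM there and 83.1 ± 26.1 CPM in control mTEClo, with 397 ± 114 and 249 ± 41.9 CPM in the mTEChi groups (1.86, SE 0.32, adjusted p = 0.0367). Birc5 averaged 1.66 ± 0.50 CPM there and 6.57 ± 1.75 CPM in control mTEClo, with 32 ± 8.07 and 30.2 ± 5.02 CPM in mTEChi (2.07, SE 0.37, adjusted p = 0.0448). H2-Eb1 was at 709 ± 51.8 and 1280 ± 224 CPM in the mTEClo groups and at 5260 ± 327 and 5200 ± 164 CPM in the mTEChi groups (0.87, SE 0.14, adjusted p = 0.0323). The zinc exporter gene Slc30a2 was at 24.5 ± 4.44 and 54.8 ± 9.71 CPM against 94.4 ± 4.31 and 93.6 ± 9.56 CPM (1.17, SE 0.20, adjusted p = 0.0365), and the zinc finger factor Zfp423 at 1.17 ± 0.43 and 6.85 ± 1.24 CPM against 17.0 ± 3.57 and 15.2 ± 4.26 CPM (2.69, SE 0.43, adjusted p = 0.0316).

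Apoa4 stood at 1.97 ± 0.61 CPM in double-mutant and 29.5 ± 16.7 CPM in control mTEClo, and at 41.3 ± 6.78 and 74.3 ± 15 CPM in mTEChi (3.03, SE 0.50, adjusted p = 0.0323). Reg1 read 6.23, 10.2, 62.6 and 16.3 CPM in control mTEClo against 0.27, 0.45, 0.41 and 0 CPM in double-mutant mTEClo, and its difference of 5.92 (adjusted p = 0.0482) became 4.79 without control mTEClo library 3. Trem2, a myeloid receptor gene, had 79 reads in double-mutant mTEChi and none in double-mutant mTEClo, at least 26.7-fold higher, with 5.16 ± 0.32 and 2.65 ± 0.30 CPM in the control subsets (adjusted p = 0.0182). Aire itself, with log2 fold changes of 3.31 and 2.08, did not pass (difference 1.22, SE 0.34, adjusted p = 0.154), nor did Trpm5 (-0.19, adjusted p = 0.834).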

How the data were processed

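The authors deposited unnormalized whole-number counts of reads for 55011 gene symbols. Per the labels' protocols, 1000 cells per library were sorted after magnetic depletion of CD45-bearing cells, cDNA was made from an oligo(dT) primer, and Tn5 libraries amplified for 18 cycles were read as paired ends of 38 bases. Per the submitters' processing notes, STAR 2.7.3a, featureCounts and mm10 were used; neither the annotation nor the settings of the counting are stated in the sources used here. Gene positions come from GENCODE M21 (mm10), which holds 52936 of the symbols.

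The 16 double-mutant and control libraries of both subsets (5344084 to 8342583 counts, 4 per group) were fitted together with edgeR 4.0.16 in R 4.3.3, by its quasi-likelihood test with TMM normalization. Genes were kept by filterByExpr (minimum count 10, minimum total 15), which left 20095 of the 46394 with a read, and were called at an adjusted p under 0.05 (Benjamini-Hochberg over all genes tested). No batch term was possible. Counts of replicate libraries differed by 7.79 to 15.9 per degree of freedom (chi-square, 24 pairs), more than counting error alone. Libraries were not pooled. This spread does not tell separate animals from technical repeats. For a gene without a read in a group a bound is computed with 3 counts in place of 0, and a gene with 1 to 3 reads there is given as a ratio with an exact 95% interval. The test was also run on simulated counts in which few genes differed between the subsets. The data are unlike that setting, so the run does not check the calls made here.

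The comparison and the 27 gene lists (520 genes, textbook markers) were chosen with earlier results of these data known. The text names Hnf4a, Hnf4g, Aire, Vim and Birc5, the 10 genes of largest fold in each direction (at least 10 CPM on average in the subset where it is higher, no overlap of libraries, proper symbol), from each list the 3 called members of smallest p and the 2 of highest level, or a selection of these, and the genes called for the difference between genotypes. Plk1, Top2a and Cdca8 carry the smallest p among G2 and mitosis genes with TTTGAA in the promoter window. The genes of higher level (at least 200 CPM), the Tas2r family, and list members given by name beyond these rules were chosen after their values were seen. Alternatives were RLE normalization, plain totals, no filter, DESeq2 1.42.0, limma-voom (limma 3.58.1), a replicate block, edgeR's glmTreat against a log2 change of 1, a fit of the 8 compared libraries alone, and leaving out each library. Results for some items are not reported here.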

Additional observations from a re-analysis of the deposited data

Results flagged for a closer look

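For 12 genes the subset difference itself differed between double mutants and controls by the test of that difference; the adjusted p was 0.0167 for Cdhr5 and for F11r, 0.0182 for Myo15b and for Trem2, 0.0316 for Zfp423, 0.0323 for Apoa4 and for H2-Eb1, 0.0365 for Slc30a2, 0.0367 for Vim, 0.0448 for Birc5 and for Pstpip2 and 0.0482 for Reg1.

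In 20 of 276 sets of 4 libraries (7.2%), a library stood apart from the other 3 by Dixon's criterion, which chance meets in about 1 in 20 sets. In mTEChi, library 2 stood high for Csrp3 (19.8 CPM), Ezr (455 CPM) and Elf3 (237 CPM) and low for Cd74 (13800 CPM) and Apoa1 (47.9 CPM), library 3 stood high for Lrmp (287 CPM) and Klf5 (29.7 CPM), and library 1 stood high for Cdca8 (71.8 CPM). In mTEClo, library 1 stood low for Cd74 (1750 CPM) and Rrm1 (55.6 CPM), and library 4 stood low for Themis (24 CPM) and high for Mcm5 (15.8 CPM) and Tnnc1 (1.64 CPM). Library 2 of mTEClo stood low for Tas2r118 (188 CPM) and high for Tppp3 (199 CPM), and library 3 stood high for H2-Ab1 (2650 CPM). Genes near 0 in mTEClo were flagged by a single library with reads: Hsd3b1 and Xcl1 in library 2 (0.149 CPM each), Tbx19 (0.137 CPM) and Reg3b (1.37 CPM) in library 1.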

How the results depend on the processing

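The count of genes that differed between the double-mutant subsets kept within 1.5 times of 10207 in every alternative except glmTreat, which asks for a log2 change over 1 and left 4035 (2454 of 8621 in the controls). It was 10121 with RLE normalization, 10115 with plain totals, 10332 without the filter, 10538 with DESeq2, 10453 with limma-voom, 9146 in a fit of the 8 libraries alone and 9453 to 9821 with a library left out, and the control count ran from 7370 to 8405 with a library left out. Of 133 named genes called, 129 kept their direction and call in every alternative but glmTreat, which 110 passed; the exceptions were Reg3b, Ly6d, Cldn4 and Pdgfra. No result reversed. For each list, the count of members called in its main direction stayed within 1.5 times in 404 of 405 comparisons, glmTreat left out. Counts in a list's other direction were not compared.

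The difference between genotypes was far less settled. Against 12 genes, no filter gave 321, DESeq2 360, limma-voom 4, a replicate block 1 and glmTreat 0, and leaving out a library gave 1 to 157. The count moved by over 1.5 times without double-mutant mTEChi library 3 (157) or 1 (5), double-mutant mTEClo library 1 (2), 2 (7) or 4 (6), control mTEChi library 1 (3), 2 (3), 3 (6) or 4 (1), and control mTEClo library 1 (85), 3 (5) or 4 (2). Cdhr5 and F11r kept the call in 21 of 23 alternatives and Myo15b in 18, while the others lost it in 8 to 17. The cause was not tested. Same-numbered mTEChi and mTEClo libraries did not deviate together (correlations of -0.005 to 0.026 in double mutants and 0.009 to 0.028 in controls), so the number was not taken as a pairing; with the replicate block 9794 genes were called in double mutants and 8169 in controls. Genes with few reads in a subset are limited by depth: their folds are bounds or carry wide counting intervals.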
